A study of Mus musculus with 6 samples.

Results

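The crypt stem cell genes described here are Lgr5, Tnfrsf19, Rgmb, Slc14a1, Esrrg, Rnf32 and Prom1, 7 of the 744 genes that carry a single symbol in the authors' deposited table, and each has 1 probe set there. Gene expression was measured on 6 one-colour Affymetrix MoGene 1.0 ST arrays, each made from 100 ng of total RNA that was extracted from laser-dissected crypt base epithelium of the ileum. Of these, 3 came from wild type (WT) mice and 3 from Nod2-/- mice, all of the C57BL/6J background and 8 weeks of age. The Nod2-/- mice lack the intracellular receptor Nod2 for fragments of bacterial cell walls, and no treatment is given in the labels. The labels do not tie an array to an animal, so the spread between arrays of a genotype may be partly technical.

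The crypt base of the small intestine holds slender columnar stem cells wedged between Paneth cells. These stem cells are kept by Wnt signals, which R-spondins reinforce through Lgr5 and its relatives, and their daughters leave that state as bone morphogenetic protein (BMP) signals increase towards the villus. The genes described here are known as genes enriched in, or shared by, such stem cells of the mouse intestine. The labels call the captured material Paneth cells, and the laser capture was of the crypt base. The defining Paneth cell markers Lyz1 and Mmp7 have no named probe set in the table and were not analysed here. Of 19 Paneth cell genes, 7 have a named probe set, and their log2 intensities ranged from 6.24 (Mptx1, a mucosal pentraxin, in WT replicate 1) to 12.67 (Pnliprp2, a lipase, in Nod2-/- replicate 1). Lgr5 itself lay at percentile 95.4 of all 28853 probe sets by its mean. Whether fewer stem cells or less RNA per cell underlies a lower value cannot be told apart in such bulk samples.

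The genes were chosen by their measured difference between the genotypes, through a place in the authors' table, which takes in probe sets that differ between the genotypes by at least 0.41 on the log2 scale or, where the authors' unpaired test gave p of 0.05 or less, by at least 0.32. Their difference between Nod2-/- and WT is therefore given as a description, without a test. All 7 passed by the fold. The closest inside the threshold was Tnfrsf19, at a difference of -0.42, and the largest size among probe sets outside the table was 0.41. All values below are log2 intensities of the deposited RMA values, differences are Nod2-/- minus WT, and means are given with the SD over 3 arrays.

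Of the 7 genes, 6 were lower on average in Nod2-/- and 1, Prom1, was higher. The median difference of the 7 was -0.49, against -0.01 over all probe sets. The 3 arrays of one genotype lay wholly below those of the other in 4 of the 7 genes, Slc14a1, Esrrg, Rnf32 and Tnfrsf19, all 4 of them lower in Nod2-/-. The same complete separation was found for 8.07% of all probe sets in either direction, for 4.64% with Nod2-/- lower, and for 45.0% of the probe sets with 1 symbol in the table. The table itself holds 3.65% of all probe sets. With limma, 0 of 28853 probe sets (0.0%) had an adjusted p under 0.05 between genotypes, 1106 had an unadjusted p under 0.05, and the methods' t-test gave 0 and 1043.

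**Figure D1:**
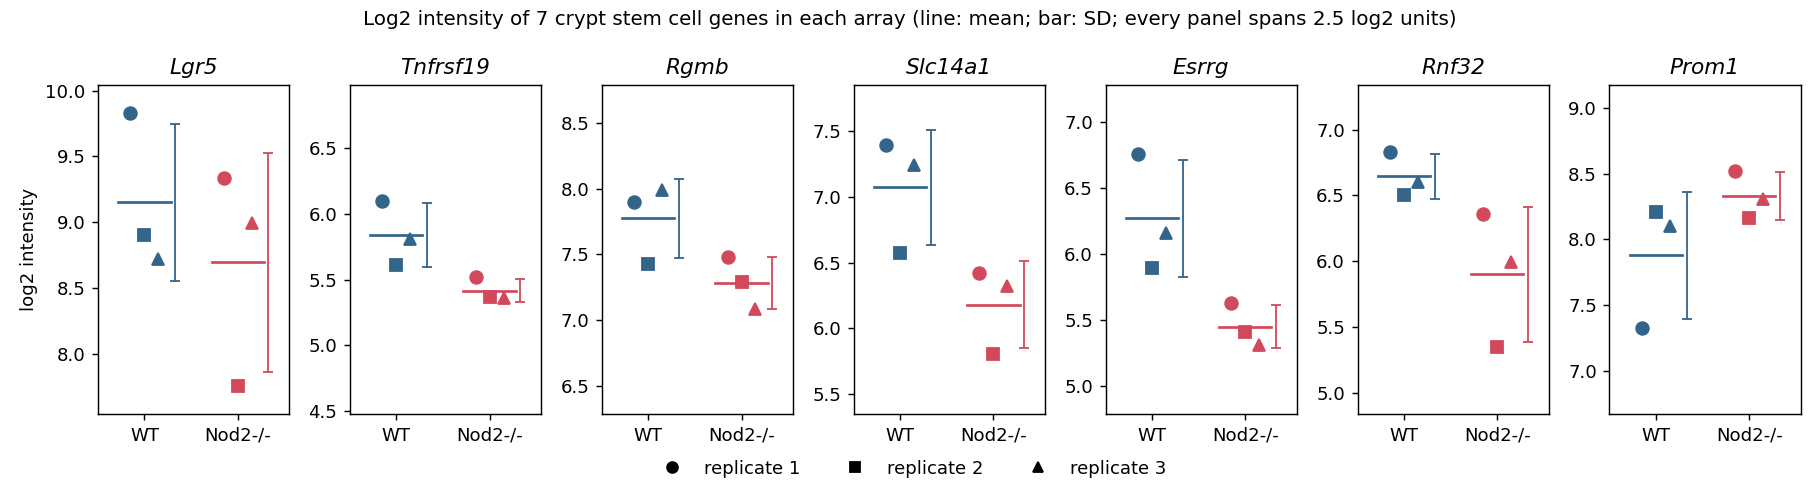
Log2 intensity of each gene on each array, with replicates marked by shape, the group mean as a line and the SD (n = 3) as a bar; each panel spans the same number of log2 units. Slc14a1, Esrrg, Rnf32 and Tnfrsf19 show no overlap between genotypes, while Lgr5 ranges from 7.76 to 9.34 in Nod2-/- and from 8.72 to 9.83 in WT.

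Lgr5 is the R-spondin receptor that marks the columnar stem cells of the crypt base (chromosome 10, 114887370 to 115024836, minus strand, mm9). Its WT replicates 1, 2 and 3 had values of 9.83, 8.91 and 8.72, and its Nod2-/- replicates had values of 9.34, 7.76 and 8.99. The genotypes overlapped, with Nod2-/- replicates 1 and 3 above WT replicate 3, and Nod2-/- replicate 2 stood alone at the bottom. The means were 9.15 ± 0.59 in WT and 8.70 ± 0.83 in Nod2-/-, a difference of -0.46, or 1.37-fold lower, which was 0.631 of the SD within genotypes. Without Nod2-/- replicate 2 the difference was 0.01, in the other direction, and without WT replicate 1 it was -0.12. The SD of Lgr5 within genotypes, 0.72, exceeded that of 99.1% of all probe sets, whose median was 0.12.

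Tnfrsf19, also called Troy, is a receptor of the tumour necrosis factor receptor superfamily and a Wnt target in crypt stem cells (chromosome 14, 61582712 to 61665327, minus strand, mm9). Its values were 6.10, 5.61 and 5.81 in WT and 5.52, 5.37 and 5.36 in Nod2-/-. Every Nod2-/- array lay below every WT array, and the 3 Nod2-/- arrays were close together. The difference of -0.42 (means 5.84 ± 0.24 and 5.42 ± 0.09, 1.34-fold lower) was the smallest of the 7 in size. Its Nod2-/- mean was only a little above the medians of the arrays, which lay between 5.11 and 5.15, and without a measure of background its fold is uncertain. With a pseudocount of 16 the difference of Tnfrsf19 was -0.32, smaller in size than the fold threshold of 0.41.

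The 250 bases before each of 12 starts of Tnfrsf19, Rgmb, Esrrg, Rnf32 and Prom1, taken from RefSeq promoter sequences in build GRCm38.p6, were searched on both strands for CTTTGAT, the core that the Wnt-dependent TCF/LEF factors bind, and for CAGCTG, an E-box. Lgr5 and Slc14a1 were not searched. Each motif was found in 1 of the 12 windows, the same one, which belongs to one of the starts of Tnfrsf19. Over all 32851 windows of that length, 3.21% held the first motif and 13.0% the second. The windows of both Tnfrsf19 starts are shown to compare the one with the matches to the one without. Capitals mark the matches, which are ATCAAAG (the first motif read from the opposite strand, beginning 202 bases before the start) and CAGCTG (beginning 10 bases before it). The windows are given in the direction of transcription, chr14:61037988-61038237 and chr14:61046856-61047105, both on the minus strand of GRCm38.p6.
Tnfrsf19, start with both motifs: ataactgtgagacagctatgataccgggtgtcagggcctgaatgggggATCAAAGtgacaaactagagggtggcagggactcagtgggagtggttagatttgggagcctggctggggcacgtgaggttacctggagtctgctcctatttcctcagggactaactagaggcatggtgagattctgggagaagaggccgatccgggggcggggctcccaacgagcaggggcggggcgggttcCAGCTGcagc
Tnfrsf19, start with neither motif: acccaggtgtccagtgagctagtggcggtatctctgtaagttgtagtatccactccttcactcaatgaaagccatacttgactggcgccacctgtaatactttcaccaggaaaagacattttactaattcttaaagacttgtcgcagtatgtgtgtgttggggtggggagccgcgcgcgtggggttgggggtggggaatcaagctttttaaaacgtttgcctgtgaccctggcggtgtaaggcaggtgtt
A match describes these letters in this window and is not a bound site, and the arrays do not tell the starts apart.

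Rgmb is a membrane-anchored co-receptor for BMPs (chromosome 17, 15941626 to 15963550, minus strand, mm9). It had values of 7.90, 7.43 and 7.99 in WT and 7.48, 7.29 and 7.08 in Nod2-/-. WT replicate 2 lay just below Nod2-/- replicate 1, so the genotypes overlapped by this pair only. The means were 7.77 ± 0.30 and 7.28 ± 0.20, a difference of -0.49 or 1.40-fold lower, and the difference stayed between -0.66 and -0.38 when any one array was left out.

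Slc14a1, a urea transporter, had the largest difference of the 7 (chromosome 18, 78296830 to 78320061, minus strand, mm9). Its values were 7.40, 6.57 and 7.24 in WT and 6.42, 5.80 and 6.32 in Nod2-/-. The genotypes did not overlap, though only 0.15 separated WT replicate 2 from Nod2-/- replicate 1. The difference was -0.89 (means 7.07 ± 0.44 and 6.18 ± 0.33, 1.85-fold lower), and it lay between -1.14 and -0.70 with any one array left out.

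Esrrg encodes an orphan nuclear receptor of the oestrogen-related family, known for its control of oxidative metabolism genes (chromosome 1, 189821738 to 190038763, plus strand, mm9). WT arrays had 6.76, 5.89 and 6.16, and Nod2-/- arrays had 5.63, 5.41 and 5.31. WT replicate 1 stood above the other WT arrays, and the Nod2-/- arrays were all below the lowest WT array. The difference was -0.82 (6.27 ± 0.45 and 5.45 ± 0.17, 1.77-fold lower), and -0.58 without WT replicate 1. As for Tnfrsf19, the Nod2-/- mean was only a little above the array medians, so the fold is uncertain. With a pseudocount of 16 the difference was -0.65.

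Rnf32 encodes a RING finger protein (chromosome 5, 29522618 to 29552062, plus strand, mm9). Its values were 6.83, 6.50 and 6.60 in WT, and 6.36, 5.35 and 5.99 in Nod2-/-. Here the WT arrays were close together and the Nod2-/- arrays were spread out, with replicate 2 lowest, and the genotypes did not overlap. The difference was -0.74 (6.64 ± 0.17 and 5.90 ± 0.51, 1.67-fold lower), which became -0.47 without Nod2-/- replicate 2.

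Prom1 encodes prominin 1 (CD133), a membrane glycoprotein found in stem cells and in their dividing progeny in the mouse small intestine (chromosome 5, 44384860 to 44493271, minus strand, mm9). It was the gene that went the other way, with values of 7.32, 8.21 and 8.10 in WT and 8.52, 8.16 and 8.30 in Nod2-/-. WT replicate 1 was far below the other 5 arrays, which lay within a narrow range and overlapped. The means were 7.88 ± 0.48 and 8.33 ± 0.18, a difference of 0.45 or 1.37-fold higher, and without WT replicate 1 it was 0.17. On the arrays of replicate 1 alone the difference was 1.20, and over replicates 2 and 3 it was 0.08.

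**Figure D2:**
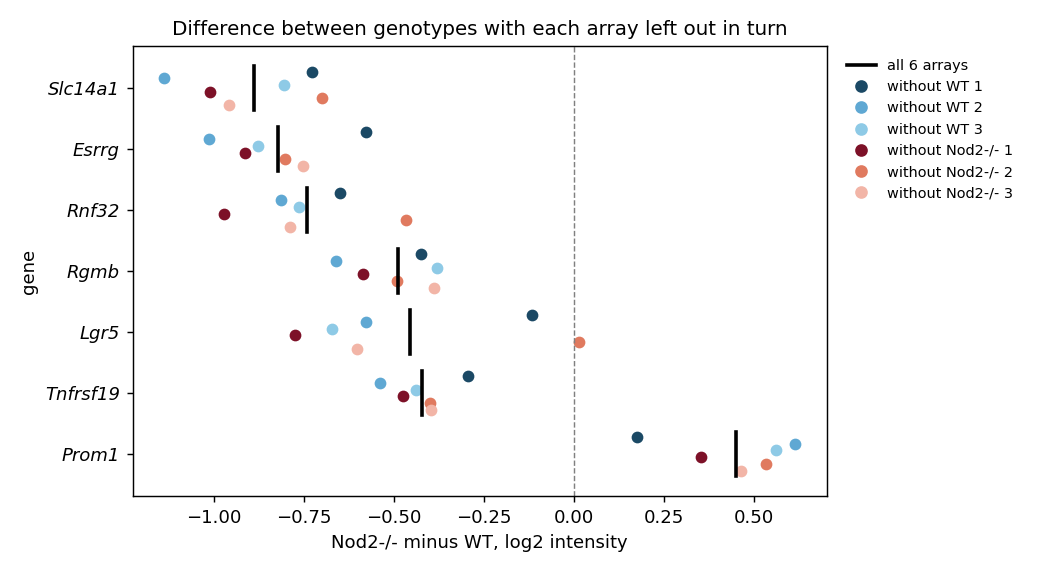
Difference between Nod2-/- and WT (log2 intensity, x axis) for each gene with all 6 arrays (black line) and with each array left out in turn (points). Lgr5 reaches 0.01 without Nod2-/- replicate 2 and Prom1 falls to 0.17 without WT replicate 1, while Slc14a1 stays between -1.14 and -0.70.

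The 6 lower genes shared part of their order of arrays within each genotype. WT replicate 1 was the highest of the 6 arrays in 5 of the 6 genes, as it was for 18.7% of all probe sets and for 48.2% of those with 1 symbol in the table that were lower in Nod2-/-. WT replicate 2 was the lowest WT array in 5. Within Nod2-/-, replicate 1 was the highest in all 6, and the lowest was replicate 2 in 3 genes (Lgr5, Slc14a1 and Rnf32) and replicate 3 in the other 3. The shares of all probe sets with WT replicate 2 lowest in WT, or with these orders in Nod2-/-, were not computed. The rule for the genes also names covariation across arrays, so the shared order is a description. The mean of the 6 genes was 7.47, 6.82 and 7.09 in WT and 6.79, 6.16 and 6.51 in Nod2-/-. WT replicate 2 and Nod2-/- replicate 1 were almost level in this mean, and the difference between genotypes of -0.64 (7.12 ± 0.33 and 6.49 ± 0.31) ranged from -0.79 to -0.47 with any one array left out.

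In the authors' column names each array carries a date-like number, which is shared by WT and Nod2-/- replicate 1 and differs from that of the other 4 arrays. Its meaning is not stated, and it is called the date here. The genotype difference of the mean of the 6 genes was -0.68 for the replicate 1 arrays and -0.62 for the rest, and all 6 genes were lower in Nod2-/- on both. For single genes, the differences on the 2 dates were -0.49 and -0.44 for Lgr5, -0.98 and -0.85 for Slc14a1, and -1.13 and -0.67 for Esrrg. They were -0.47 and -0.88 for Rnf32, -0.42 and -0.52 for Rgmb, and -0.58 and -0.35 for Tnfrsf19. The date of replicate 1 has a single array per genotype, so its differences have no replicate error.

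The rule for the genes names the genotype difference and no date, but it also names values per array and their covariation. The date comparison is therefore not independent of the choice. All 6 lower genes were higher on the date of replicate 1 in both genotypes. The same held for 22.7% of all probe sets, and for 34.1% of the 328 probe sets with 1 symbol in the table that were lower in Nod2-/-. In WT, Lgr5 was 1.02 higher in replicate 1 than in the mean of replicates 2 and 3, and in Nod2-/- it was 0.96 higher. This shift of Lgr5 was about as large in each genotype, and it was more than its difference between the genotypes. In a limma fit with genotype and date, the date difference of Lgr5 was 0.99 with a standard error of 0.35 (unadjusted p = 0.0398, limma adjusted p = 0.516). For Esrrg it was 0.50 with a standard error of 0.14 (unadjusted p = 0.0175, limma adjusted p = 0.436), and for Tnfrsf19 it was 0.27 with a standard error of 0.09 (unadjusted p = 0.0343, limma adjusted p = 0.495). Rnf32 (0.48), Slc14a1 (0.42), Rgmb (0.24) and Prom1 (-0.27) had unadjusted p above 0.05.

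Thus 3 of the 7 genes had an unadjusted p under 0.05 for the date, against 9.2% of all probe sets and 18.5% of those with 1 symbol in the table, and 0 passed after adjustment with limma, where 0 of 28853 (0.0%) passed in all and 2655 had an unadjusted p under 0.05. Higher values on the date of replicate 1 at that unadjusted level were found for 5.19% of all probe sets. The median SD within genotypes was 0.37 for the probe sets of the table and 0.12 for all, and all 7 genes lay above the latter, so the choice is not wholly independent of the date difference, and the 7 were also picked with earlier results known. Whether the genotype difference itself differed between the dates was tested as an interaction. Prom1 had the largest interaction of the 7, 1.12 with a standard error of 0.16 (unadjusted p = 0.00227, limma adjusted p = 0.458), where 7.06% of all probe sets had an unadjusted p under 0.05 and 0 (0.0%) passed after adjustment. The other 6 had unadjusted p between 0.0964 and 0.947, and with 2 residual degrees of freedom the fit has little precision.

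**Figure D3:**
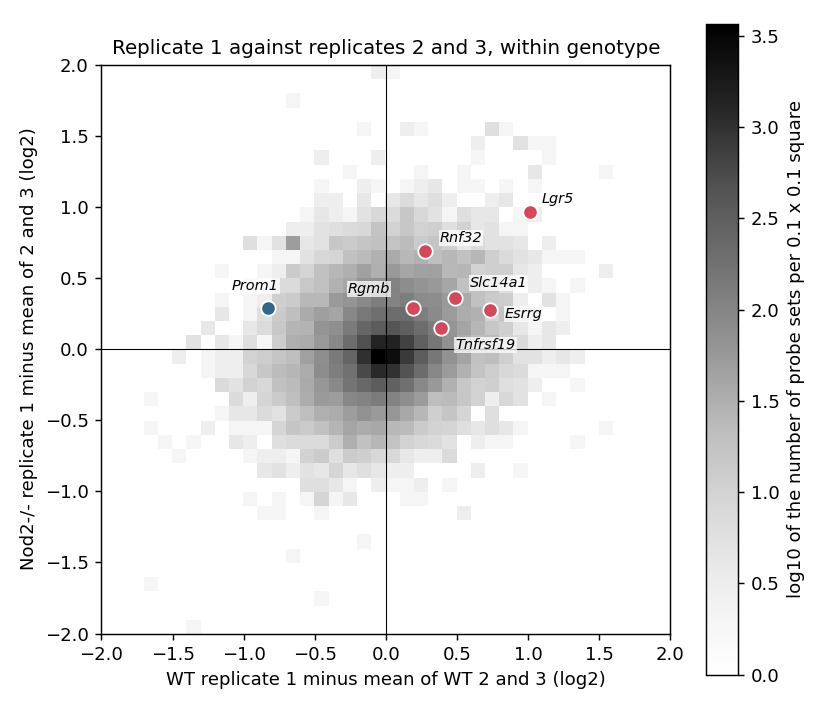
Replicate 1 minus the mean of replicates 2 and 3 (log2 intensity) in WT (x axis) and Nod2-/- (y axis); grey squares count all probe sets within 2 log2 units, red points are the 6 lower genes and the blue point is Prom1. The 6 lower genes lie at the upper right, with Lgr5 at 1.02 and 0.96, and Prom1 lies at -0.83 and 0.29.

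Markers of other cells also differed from array to array. Of 12 fibroblast and matrix genes, 8 have a named probe set in the table, all higher in Nod2-/- on average. All 8 were lowest within WT in replicate 1, the array in which 5 of the 6 lower stem cell genes were highest. Their mean was 7.11, 7.83 and 7.86 in WT and 8.00, 8.67 and 8.18 in Nod2-/-. Nod2-/- replicate 2 had the highest fibroblast mean and the lowest mean of the 6 stem cell genes. The summed intensity of the 8 lay between 1503 and 2558 in WT and between 2461 and 4305 in Nod2-/-. Of 12 enterocyte genes, 5 are in the table, with means of 7.95, 7.31 and 7.26 in WT and 7.24, 6.97 and 7.23 in Nod2-/-, and 4 of the 5 were highest within WT in replicate 1. Their summed intensity lay between 1053 and 1708 in WT and between 721 and 1065 in Nod2-/-. The 7 Paneth cell genes had summed intensities between 11369 and 12237 in WT and between 15466 and 25065 in Nod2-/-. All 7 were higher in Nod2-/- on average, and in 3 the genotypes did not overlap, against 45.0% of all 1-symbol probe sets in the table. The narrow range of the sum in WT hides opposite orders of single genes. Reg3b had 7.42, 11.42 and 10.20 in WT, and Reg4 had 11.29, 9.53 and 9.94. Of 14 leukocyte genes, 4 are in the table, all higher in Nod2-/- on average, with summed intensities between 316 and 1765 in WT and between 1039 and 1937 in Nod2-/-. In 3 of these 4, WT replicate 1 was the lowest WT array, as for the class II genes Cd74 (7.51, 10.24 and 9.94 in WT) and H2-Aa (6.41, against 8.99 or more in the other WT arrays). Over replicates 2 and 3, Cd74 and H2-Aa were lower in Nod2-/- (-0.53 and -0.45), while the mast cell proteases Mcpt1 and Mcpt2 were higher (1.60 and 1.40). Without Nod2-/- replicate 3, Mcpt1 and Mcpt2 were higher by 0.54 and 0.13. The table names 10 of 14 tuft cell genes, and each had a higher mean in Nod2-/-. Their summed intensities lay between 408 and 439 in WT and between 497 and 1019 in Nod2-/-. In 5 of the 10 the genotypes did not overlap, against 45.0% of all 1-symbol probe sets in the table. Of 10 goblet cell genes, 6 are in it, 4 higher and 2 lower, and their sums were between 2276 and 4385 in WT and between 4006 and 5516 in Nod2-/-. Of 12 enteroendocrine genes, 5 are in it, 4 higher and 1 lower, with sums between 444 and 1011 in WT and between 582 and 1540 in Nod2-/-. Of 6 smooth muscle genes only Actg2 is in it, higher by 0.43 with overlap. As the table was chosen on the genotype difference, these directions too are a description. The same choice favours low WT arrays among genes higher in Nod2-/- and high WT arrays among lower ones. The opposite orders of fibroblast and stem cell genes can therefore be partly set by the choice. The share of the table's higher probe sets with WT replicate 1 lowest was not computed. The shares of all probe sets with WT replicate 1 highest or lowest within WT were not computed. No marker with a named probe set can be read as absent, because arrays give no zero. The part of these cell types in the stem cell gene differences was not tested.

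**Figure D4:**
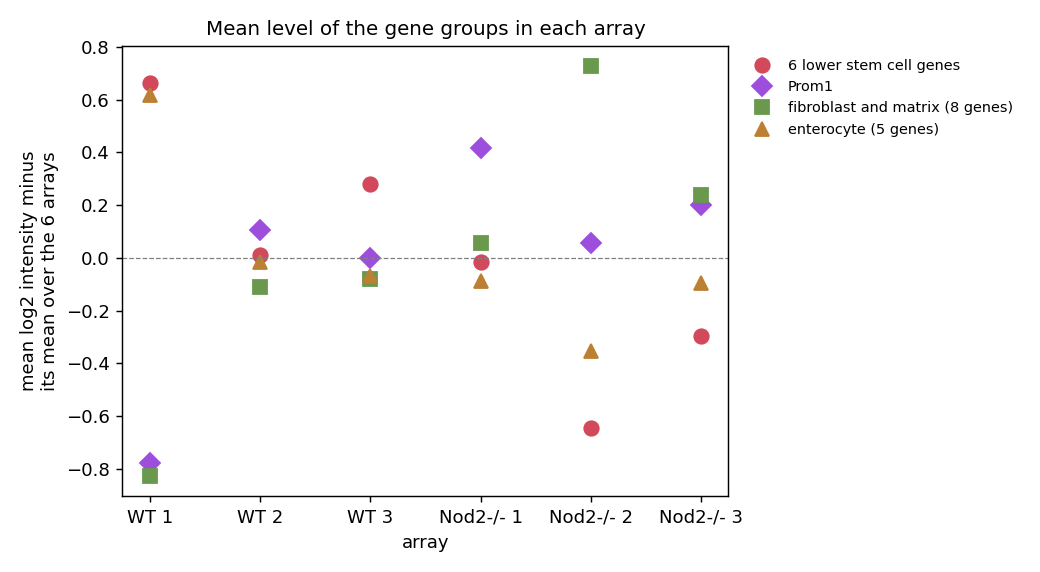
Mean log2 intensity of 4 groups on each array, each minus its own mean over the 6 arrays: the 6 lower stem cell genes, Prom1, 8 fibroblast and matrix genes and 5 enterocyte genes. WT replicate 1 is highest for the stem cell (7.47) and enterocyte genes (7.95) and lowest for Prom1 (7.32) and the fibroblast genes (7.11).

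Beyond the 7, a wider list of 40 stem cell genes had 8 genes with a named probe set in the table, the 7 and Vdr, the vitamin D receptor. Vdr had values of 9.48, 9.66 and 9.35 in WT and 9.33, 8.41 and 9.28 in Nod2-/-. The genotypes were separated only narrowly, by 0.02, and the difference of -0.49 became -0.19 without Nod2-/- replicate 2. The other 32 genes, among them the stem cell markers Ascl2, Olfm4 and Smoc2, have no probe set with 1 symbol in the table and were not analysed here.

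Of 42 genes of the Wnt pathway, 5 have a named probe set in the table, 4 lower and 1 higher in Nod2-/-. Besides Lgr5 and Tnfrsf19 these were Nkd1, Sfrp5 and Sfrp1. Nkd1, an inhibitor and target of Wnt signalling, had values of 6.38, 6.16 and 6.87 in WT and 5.55, 5.52 and 6.01 in Nod2-/-. It did not overlap between genotypes, and its difference of -0.78 was of similar size on the 2 dates (-0.83 and -0.75). Unlike the 6 lower stem cell genes, replicate 3 was its highest array in both genotypes. Sfrp5, a secreted Wnt inhibitor, was near the array medians (5.43 ± 0.44 in WT and 4.90 ± 0.17 in Nod2-/-), with a difference of -0.54 that was -0.29 without WT replicate 3. Sfrp1, of the same family, was higher in Nod2-/- by 0.50, with overlapping arrays, and by 0.23 without WT replicate 1.

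Of 25 genes of the BMP pathway, 3 are in the table, all lower in Nod2-/-. Besides Rgmb these were Crim1, a transmembrane protein that binds BMPs, and Id2, a transcriptional inhibitor that BMP signals induce. Crim1 had values of 6.54, 6.12 and 6.33 in WT and 5.52, 5.48 and 5.81 in Nod2-/-, with no overlap and a difference of -0.73. Id2 had 5.87, 5.88 and 6.42 in WT and 5.21, 5.74 and 5.70 in Nod2-/-, with a difference of -0.51. Of 18 Notch pathway genes only Notch2, a receptor, is in the table (-0.41, with overlap), and of 12 genes of the epidermal growth factor pathway only Erbb2, a receptor kinase, is in it (-0.41, with overlap, and -0.08 without Nod2-/- replicate 2). As these genes are in the table for their genotype difference, their directions are a description and test no pathway. None of 11 relatives of the 7 genes, such as Lgr4, Rgma and Esrra, has a named probe set there. Of 20 cell cycle genes, 2 are in it, 1 lower and 1 higher.

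The genes whose profile over the 6 arrays was closest to that of Lgr5 were sought among the other 743 genes of the table. The measure was the root mean square difference of log2 values after each gene was centred on its own mean. The closest were Ltn1 (0.162, named Rnf160 in the table), an E3 ubiquitin ligase of ribosome quality control, 2010007H06Rik (0.170), the probe set named Mir15a (0.174), Insr, the insulin receptor (0.215), and Acnat1 (0.261). In all 5, WT replicate 1 was the highest of the 6 arrays and Nod2-/- replicate 2 the lowest, as for Lgr5. The choice by likeness over the same arrays favours this. Ltn1 had 7 probe sets with its symbol in the table, and the value is that of the closest. Of the stem cell genes, Rnf32 was the closest to Lgr5, at 0.355, followed by Slc14a1 (0.472), Tnfrsf19 (0.508), Esrrg (0.512) and Rgmb (0.588), and Prom1 was the farthest, at 0.857.

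**Figure D5:**
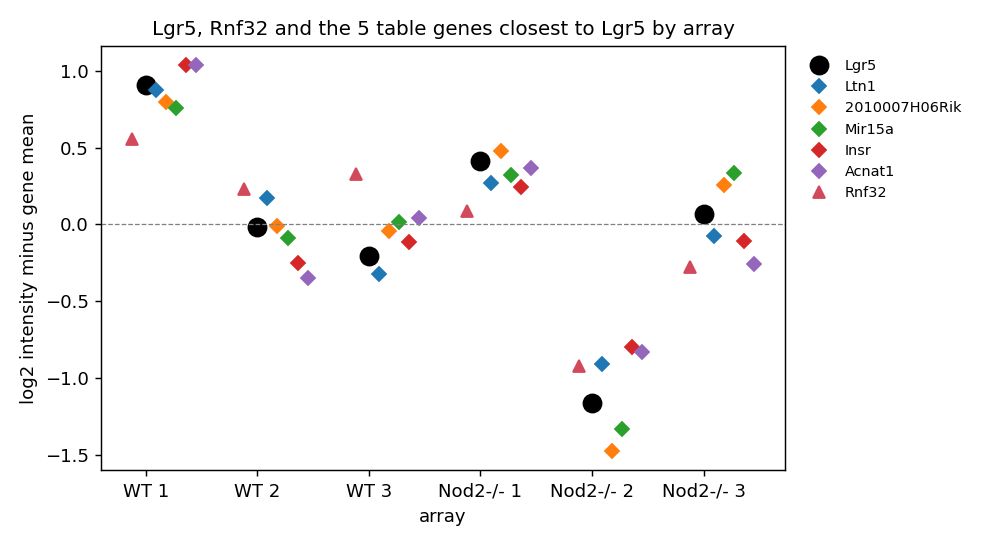
Log2 intensity minus the gene's own mean over the 6 arrays for Lgr5, for Rnf32 and for the 5 genes of the table closest to Lgr5. All are highest in WT replicate 1 and lowest in Nod2-/- replicate 2, where Lgr5 had 9.83 and 7.76.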

How the data were processed

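Expression was measured on 6 arrays, 3 WT and 3 Nod2-/-, grouped by the labels. The deposited intensity values were made by RMA per the submitters' processing notes, with settings not given in the sources used here, and lie on a linear scale from 18.8 to 12280. The second deposited table holds 1053 of 28853 probe sets, for the MoGene 1.0 ST array, annotation release na31 and build mm9 per the file headers, and its intensities equal the value table in all 1053 (relative tolerance 0.001). Per the file headers it also gives a ratio to the WT median, a log2 value relative to WT, p-values of an unpaired test, folds and a signed fold score by the authors, none of which is printed here. Of its probe sets 855 have 1 symbol. Current symbols were taken from RefSeq (GRCm38.p6) where the Entrez number matched, which 800 did, and 116 differed from the table's. For genes with several, the brightest stands for the gene in the lists.

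Log2 intensities of all probe sets were fitted with limma 3.58.1 in R 4.3.3, without a filter and with Benjamini-Hochberg adjustment at 0.05, for genotype, for date beside genotype and for their interaction; the fits were tested on simulated data. In the genotype fit, residual degrees of freedom were 4, and limma's prior added 1.74. The fits with date had fewer residual degrees of freedom. Precision is limited by the number of arrays. The genes, the lists and the tests were chosen with earlier results of these data known. The genes named are the 7, those of the pathway lists in the table, the 5 closest to Lgr5, and marker genes. Of the marker genes, Cd74, H2-Aa, Mcpt1, Mcpt2, Mptx1, Pnliprp2, Reg3b, Reg4, Fabp6 and Slc51b were picked with their values known. Python 3.11.15 was used for the rest.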

Additional observations from a re-analysis of the deposited data

How the results depend on the processing

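The median difference of the 7 genes was -0.49. It lay between -0.52 and -0.45 with array medians made equal, a repeated quantile normalization, a pseudocount of 16, linear group means and either date alone. With any one array left out it lay between -0.78 and -0.43. The -0.78 came without Nod2-/- replicate 1, a move of more than the SD of this median within genotypes, 0.25. Each gene was computed under 12 alternatives beside the replicate block, and 82 of the 84 values moved by less than 1 SD within genotypes. With 3 arrays per genotype, leaving out 1 array cannot move the difference of a single gene by 1 SD of that gene. For the values with an array left out, this count therefore says nothing about stability. Lgr5, within its wide SD, reversed to 0.014 without Nod2-/- replicate 2, and Prom1 moved to 1.20 and 0.08 within the dates of replicate 1 and of replicates 2 and 3. In this balanced design the replicate block cannot change a mean difference, so the median of -0.49 under it says nothing about stability. The count of probe sets passing between genotypes was 0 with it. Whether the replicate numbers pair the arrays is not known. The correlations of deviations from the group means over probe sets were 0.20, -0.02 and 0.06 for numbers 1, 2 and 3. These values cannot decide it, and the arrays of number 1 also share the date.

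Over all probe sets, the counts of 0 became 3 between genotypes and 5 between dates with probe sets under the median mean left out, and 3, 21 and 26 (genotype, date, interaction) with a trended and robust prior. With an array left out they lay between 0 and 2 for genotype, the 2 coming without Nod2-/- replicate 1, and stayed at 0 for date. The count within the date of replicates 2 and 3, an alternative chosen after seeing the data, was 0. None of the 7 genes was called in any of these fits.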
